A study of Homo sapiens with 4 samples.

Results

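The 45 cell cycle and DNA replication genes described here were chosen by symbol from known function, with earlier results of these data known. A direction shared by the group is therefore not independent evidence. The genes were split into 22 genes of the G1/S transition and replication and 23 genes of G2 and mitosis. Each was represented by a probe set annotated with that symbol alone, and where a gene had several, by the one with the highest mean over the 4 arrays. All 45 were measured, out of 18417 genes with such a probe set. All 45 also lay above a floor set at the 40th percentile of mean intensity, a log2 value of 4.84, as did 12900 of the 18417 genes.

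The cells were Caco-2, an established human line from a colorectal adenocarcinoma whose post-confluent cultures resemble small intestinal absorptive cells. RNA came from 4 conditions: Transwell with cholate, Transwell with vehicle, plate with cholate and plate with vehicle. Transwell cultures grew on collagen-coated porous inserts, plate cultures in ordinary wells, and cholate (2 mM, the sodium salt of cholic acid, a primary bile acid) was given for 3 h, on inserts from the apical side only. Each condition had 1 array, hybridised with a pool of RNA from 3 samples. No value below therefore has a replicate check, and a difference cannot be set against the spread between cultures. Cholate was dissolved in a salt solution without calcium. The labels do not say what the vehicle was made of, so the part of the solution in any cholate difference was not tested. Labels state 21 days of differentiation for all cultures, whereas the growth protocol states 14 days for plates and 14 to 21 for inserts, so support and culture age cannot be told apart.

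A cell commits to division in G1, when cyclin D and cyclin E kinases release E2F transcription factors from the retinoblastoma proteins. E2F targets include the proteins that load the MCM helicase onto replication origins and the enzymes that supply deoxynucleotides. A later wave of transcripts, controlled by the DREAM, MYBL2 and FOXM1 complexes, encodes the cyclin B kinase, spindle motors and checkpoint proteins of mitosis. In the intestine both waves belong to dividing crypt cells, and the RNA of both groups declines as enterocytes differentiate on the villus. In bulk RNA, fewer dividing cells and less RNA per dividing cell cannot be told apart.

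The labelled cell type was checked against 12 epithelial markers, of which 11 were measured and 11 lay above the floor. EPCAM, an epithelial adhesion molecule, read 12.7 to 12.8 log2 on the 4 arrays, and the median cholate difference of the 11 was -0.0025 on Transwell and 0.01 on the plate. Single markers differed more. CDX2, an intestinal transcription factor, read 9.48 log2 on Transwell and 8.92 on the plate in cholate, and 9.68 on Transwell and 8.68 on the plate in vehicle. KRT20, a keratin of differentiated cells, read 6.42 in cholate and 6.34 in vehicle on Transwell, and 5.59 in cholate and 5.95 in vehicle on the plate, so its lowest array was plate cholate. KRT18, a keratin of simple epithelia, stood at -0.23 for cholate on Transwell and -0.35 on the plate. SI, ALPI and VIL1, of the same 11 markers, were higher in cholate on the plate, by 0.33, 0.22 and 0.15. On Transwell they stood at 0.20, -0.06 and 0.003. In all, 5 of the 11 were lower and 6 higher in cholate on the plate. Of 5 leukocyte markers 4 were measured and 1 lay above the floor, and of 5 fibroblast markers 5 and 3. PTPRC, the pan-leukocyte CD45 gene, read 2.87 to 3.05 and the fibroblast marker DCN 2.90 to 3.08, all under the floor. CD68, a lysosomal protein, read 8.81 log2 in cholate and 8.71 in vehicle on Transwell, and 9.45 in cholate and 9.04 in vehicle on the plate. COL1A1, a collagen chain, read 7.60 and 7.57 in cholate and vehicle on Transwell, and 8.15 and 7.90 in cholate and vehicle on the plate. COL1A2 read 5.19 and 5.23 in cholate and vehicle on Transwell, and 5.30 and 5.23 on the plate. COL3A1 read 5.24 and 5.06 in cholate and vehicle on Transwell, and 5.19 and 5.08 on the plate. CD68, COL1A1 and, by little, COL1A2 were highest on plate cholate, the array on which most of the 45 genes were lowest. COL3A1 was highest on Transwell cholate. The part of these markers in the results was not tested.

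Promoter sequence, which uses no array value, differed between the 2 gene groups. E2F factors bind words such as TTTGGCGC, and the cell cycle genes homology region (CHR, TTTGAA or TTCGAA), bound by the MuvB core of DREAM, works together with CCAAT boxes in mitotic promoters. Windows from 250 bases before to 50 after the start site were searched on both strands for 4 E2F words (TTTCCCGC, TTTCGCGC, TTTGCCGC, TTTGGCGC), for the 2 CHR words and for CCAAT. RefSeq windows were at hand for 36 of the 45 genes, 18 in each group, and a gene counted when any of its windows held the word. An E2F word was found for 12 of 18 G1/S and replication genes (66.7%) and for 2 of 18 G2/M genes (11.1%). The share was 3.99% of all 27305 genes with a window and 6.40% of the 10236 that were above the floor on the arrays. For CHR words the order was the opposite, with 2 of 18 G1/S and replication genes and 12 of 18 G2/M genes, against 19.5% of all genes and 15.2% of those above the floor. CCAAT was frequent in both groups, in 13 and 16 of 18, against 39.7% of all genes. Both CHR and CCAAT were found for 11 of 18 G2/M genes, against 2 of 18 in the other group and 9.02% of all genes. For genes with several windows, 8 of the members, the 2 words need not lie in the same window. Matches of different motifs overlapped in MCM7 (E2F and CCAAT) and MKI67 (CHR and CCAAT). A match is a string of letters and not a measured binding site, and the genes were chosen for functions that go with these motifs.

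The 150 bases before the start site (GRCh38.p14) follow for 6 genes, 3 a group, taken in the order of their mean cholate difference among genes whose stretch held a word. Capitals mark the E2F, CHR and CCAAT words (CCAAT reads ATTGG on the other strand), and each sequence runs 5′ to 3′ on the gene's strand. The G1/S and replication genes ORC1 (chr1:52404424-52404573 (minus strand)), CDC25A (chr3:48188418-48188567 (minus strand)) and E2F2 (chr1:23531234-23531383 (minus strand)) come first, then the G2/M genes CCNB2 (chr15:59104996-59105145 (plus strand)), CENPF (chr1:214603045-214603194 (plus strand)) and KIF20A (chr5:138178962-138179111 (plus strand)).
ORC1: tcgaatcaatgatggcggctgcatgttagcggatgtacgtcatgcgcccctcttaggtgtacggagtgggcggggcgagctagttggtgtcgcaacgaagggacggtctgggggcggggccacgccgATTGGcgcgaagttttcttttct
CDC25A: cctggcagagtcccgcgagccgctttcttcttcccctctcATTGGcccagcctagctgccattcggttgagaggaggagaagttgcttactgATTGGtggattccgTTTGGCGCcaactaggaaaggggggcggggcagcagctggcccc
E2F2: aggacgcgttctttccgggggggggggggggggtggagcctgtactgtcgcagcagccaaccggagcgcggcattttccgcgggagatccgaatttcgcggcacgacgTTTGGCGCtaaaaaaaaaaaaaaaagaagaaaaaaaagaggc
CCNB2: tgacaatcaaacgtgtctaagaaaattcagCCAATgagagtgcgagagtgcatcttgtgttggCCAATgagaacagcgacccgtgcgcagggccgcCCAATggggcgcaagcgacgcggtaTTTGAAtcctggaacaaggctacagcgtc
CENPF: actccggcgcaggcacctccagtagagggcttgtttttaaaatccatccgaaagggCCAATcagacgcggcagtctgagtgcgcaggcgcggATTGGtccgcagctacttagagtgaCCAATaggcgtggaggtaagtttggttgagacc
KIF20A: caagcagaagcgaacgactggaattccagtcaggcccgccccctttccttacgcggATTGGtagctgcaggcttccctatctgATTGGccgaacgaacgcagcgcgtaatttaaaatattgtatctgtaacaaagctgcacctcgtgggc
CDC25A and E2F2 carried the same E2F word, TTTGGCGC, starting at -44 and -42. In CCNB2, CCAAT words began at -120, -87 and -54 and were followed by the CHR word TTTGAA at -29, and a further CCAAT at -244 lay outside the printed stretch. CENPF had CCAAT or its reverse at -94, -58 and -33, with another at 13 and its CHR word at 41, both downstream of the start. KIF20A and ORC1 held CCAAT words alone.

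Cholate pools had less RNA of most of these genes than vehicle pools, by amounts that were small for every gene. Of the 45, 39 were lower in cholate on both supports and 2 were higher on both, and the other 4 had opposite signs. On each support alone 41 of 45 lay below 0, against 53.5% of all genes on Transwell and 55.1% on the plate. Among all 12900 genes above the floor 34.7% were lower and 26.1% higher on both supports, and among the 9041 genes above the 60th percentile, where 43 of the 45 lay, 39.5% were lower on both. The median cholate difference of the 45 was -0.13 log2 on Transwell and -0.27 on the plate, against -0.01 and -0.03 over all genes. No member was 1.5-fold apart, where 1.09% of all genes were on Transwell and 3.84% on the plate. At 1.2-fold (0.263 log2), 5 members were lower on Transwell, where 5.49% of all genes were, and 23 on the plate, where 14.3% were. None was 1.2-fold higher on either support, against 4.71% and 8.87% of all genes.

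**Figure D1:**
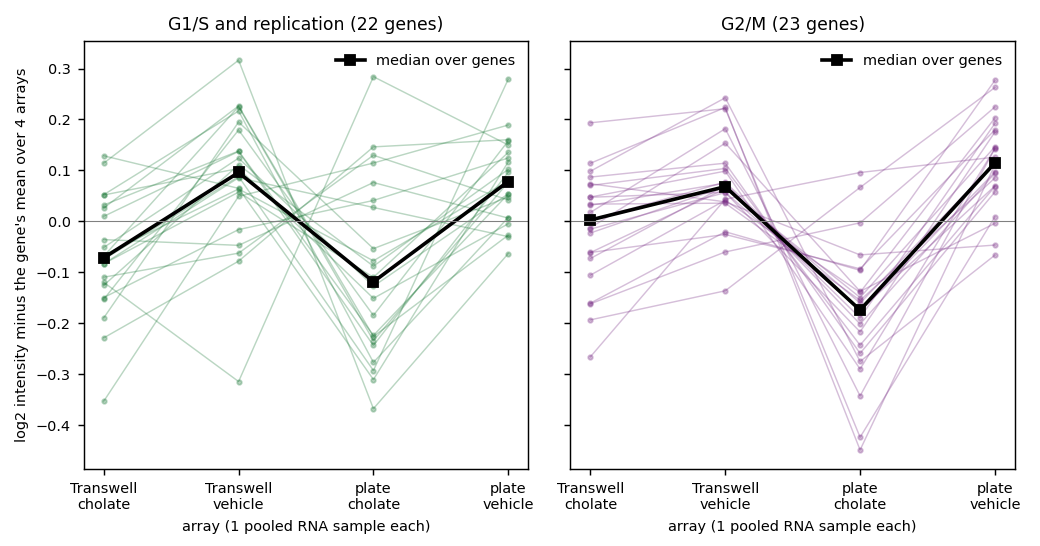
Log2 intensity of each gene minus its own mean over the 4 arrays, for 22 G1/S and replication genes (left) and 23 G2/M genes (right). Thin lines are genes, black squares the median over genes, and each array is 1 pooled RNA sample. Plate cholate is the lowest array for 13 of the 22 and 19 of the 23.

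The plate cholate array was the lowest of the 4 for 32 of the 45 genes, against 34.5% of all genes above the floor, and plate vehicle was the lowest for 0, against 22.8%. In the plot of values by array, the 2 groups within the 45 differ in where the dip lies. In the G1/S and replication group both cholate arrays sat below both vehicle arrays in the median, whereas in the G2/M group Transwell cholate lay close to the genes' own means and plate cholate far below them.

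G1/S and replication genes had nearly equal medians on the 2 supports, -0.16 log2 on Transwell and -0.19 on the plate. On both supports 17 of 22 were lower in cholate and 2 were higher. At 1.2-fold, 4 (18.2%) were lower on Transwell, where 5.49% of all genes were, and 8 (36.4%) on the plate, where 14.3% were. The difference of the 2 responses, Transwell minus plate, had a median of 0.01 in this group, against 0.02 over all genes.

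Among the G1/S cyclins and E2F factors signs were mixed, with 3 of 6 lower on both supports. CCNE1 encodes cyclin E1, which activates CDK2 at the G1/S boundary. It read 7.88 log2 in cholate and 8.05 in vehicle on Transwell, and 7.66 in cholate and 8.24 in vehicle on the plate. Its difference of -0.57 on the plate was the lowest of all 45 genes on that support, and that on Transwell was -0.16. CCNE2, the paralogue for cyclin E2, went the other way, at 7.12 in cholate and 6.92 in vehicle on Transwell and 7.52 in cholate and 7.38 in vehicle on the plate. CCNE2 and CDC6 were the 2 members higher in cholate on both supports (0.19 and 0.13 log2 for CCNE2). CDC25A encodes the phosphatase that removes inhibitory phosphates from CDK2. It read 7.33 in cholate and 7.53 in vehicle on Transwell, and 6.85 and 7.15 in cholate and vehicle on the plate. Its mean difference was -0.25 (limma SE 0.09).

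E2F2, an activator E2F, stood at -0.38 log2 on Transwell and -0.10 on the plate. Its relative E2F1 stood at -0.05 and 0.09, and CCND1, encoding cyclin D1, at -0.17 and 0.06. For these last 2 the sign differed between supports.

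Origin licensing and helicase genes were more uniform, with 10 of 12 lower on both supports and medians of -0.17 on Transwell and -0.19 on the plate. ORC1, the largest subunit of the origin recognition complex, read 6.91 log2 in cholate and 7.24 in vehicle on Transwell, and 6.87 in cholate and 7.22 in vehicle on the plate. The 2 differences, -0.33 and -0.34, were almost equal, and both cholate values lay below both vehicle values. The 6 subunits of the replicative helicase, MCM2 to MCM7, were all lower on both supports, between -0.29 and -0.05 log2 on Transwell and between -0.34 and -0.15 on the plate. MCM4 read 8.67 in cholate and 8.96 in vehicle on Transwell, and 8.50 and 8.81 in cholate and vehicle on the plate. MCM2 (-0.18 on each support) and MCM7 (-0.20 on each) were also matched to the second decimal. MCM3 was less even, at -0.13 on Transwell and -0.34 on the plate.

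CDT1 and CDC6 encode the loaders that bring the helicase to the origin. CDT1 read 7.34 log2 in cholate and 7.74 in vehicle on Transwell, and 7.81 in cholate and 7.88 in vehicle on the plate, so most of its difference was on Transwell (-0.40 against -0.07). CDC6 stood at 0.01 on Transwell and 0.07 on the plate, and its mean of 0.04 became -0.02 under median centring of the arrays. MCM10, which helps activate the loaded helicase, had the largest gap between supports of all 45 genes, at 0.06 on Transwell and -0.43 on the plate. Its values were 7.87 in cholate and 7.80 in vehicle on Transwell, and 7.43 and 7.86 on the plate in cholate and vehicle. GINS2, a subunit of the GINS complex of the active helicase, stood at -0.16 and -0.28, and CDC45, its partner, at -0.24 and -0.19.

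The sliding clamp gene PCNA and the nucleotide supply genes RRM1, RRM2 (both ribonucleotide reductase) and TYMS (thymidylate synthase) were all lower on both supports. Their differences ran from -0.15 to -0.11 log2 on Transwell and from -0.28 to -0.01 on the plate. PCNA stood at -0.11 on Transwell and -0.28 on the plate, and RRM2 at -0.15 and -0.01.

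**Figure D2:**
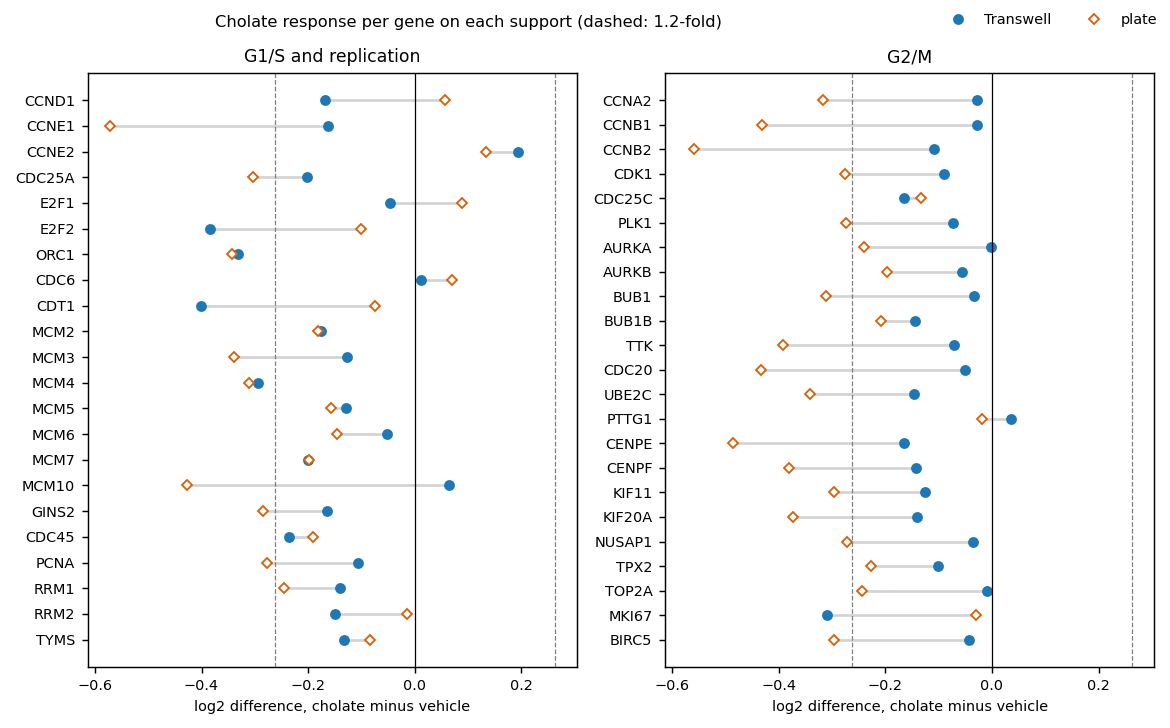
Cholate minus vehicle in log2 units for each of the 45 genes, on Transwell (circles) and on the plate (diamonds), with grey bars joining the 2 values of a gene and dashed lines at 1.2-fold. In the G2/M panel all 23 plate values lie below 0 and 22 of 23 Transwell values do, nearly all closer to 0.

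G2/M genes were lower mainly on the plate. Their median cholate difference was -0.07 log2 on Transwell and -0.30 on the plate, and 22 of 23 were lower on both supports. The plate response was the lower one for 21 of 23, against 53.9% of all genes above the floor, and the median of the difference of responses was 0.23 log2, against 0.02 over all genes. At 1.2-fold, 1 gene (4.35%) was lower on Transwell, where 5.49% of all genes were, and 15 (65.2%) on the plate, where 14.3% were. The difference of responses uses all 4 arrays and has no test. A property of the plate cholate pool and a property of cholate on plates cannot be told apart.

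CCNB2 and CCNB1 encode the B-type cyclins that activate CDK1 at entry into mitosis. CCNB2 read 9.64 log2 in cholate and 9.75 in vehicle on Transwell, and 9.08 in cholate and 9.64 in vehicle on the plate. CCNB1 read 10.72 in cholate and 10.74 in vehicle on Transwell, and 10.10 and 10.53 in cholate and vehicle on the plate. In both genes plate cholate was the lowest of the 4 arrays, and the 2 Transwell arrays differed little. The 5 genes of this role, with CCNA2 (cyclin A2), CDK1 and the CDK1-activating phosphatase CDC25C, were all lower on both supports, with medians of -0.09 on Transwell and -0.32 on the plate. CDC25C was the exception in size, at -0.17 on Transwell and -0.13 on the plate.

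The kinases PLK1, AURKA, AURKB, BUB1, BUB1B and TTK drive spindle assembly or its checkpoint, and all 6 were lower on both supports. Their differences ran from -0.14 to -0.002 log2 on Transwell and from -0.39 to -0.20 on the plate. TTK, the checkpoint kinase MPS1, read 8.37 in cholate and 8.44 in vehicle on Transwell, and 8.17 in cholate and 8.56 in vehicle on the plate. AURKA had the smallest Transwell difference (-0.002), beside -0.24 on the plate.

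CDC20 and UBE2C belong to the ubiquitin machinery that starts anaphase, as activator of the anaphase-promoting complex and as its conjugating enzyme. CDC20 read 8.40 log2 in cholate and 8.45 in vehicle on Transwell, and 8.07 in cholate and 8.50 in vehicle on the plate. UBE2C stood at -0.15 on Transwell and -0.34 on the plate. PTTG1, encoding securin, which that complex degrades, was the only G2/M gene above 0 on a support, at 0.04 on Transwell and -0.02 on the plate.

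All 6 kinetochore, motor and spindle genes had lower values in cholate on each support, with medians of -0.13 log2 on Transwell and -0.33 on the plate. On the plate 5 of 6 were 1.2-fold lower, where 14.3% of all genes were. CENPE, a kinesin at the kinetochore, read 6.53 in cholate and 6.70 in vehicle on Transwell, and 6.17 in cholate and 6.66 in vehicle on the plate. CENPF, a kinetochore and nuclear matrix protein, stood at -0.14 and -0.38, and KIF20A, a kinesin of cytokinesis, at -0.14 and -0.37. The remaining 3, KIF11, NUSAP1 and TPX2, lay between -0.13 and -0.04 on Transwell and between -0.30 and -0.23 on the plate.

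MKI67, the gene of the Ki-67 proliferation antigen, had the reverse pattern of its group. It read 9.09 log2 in cholate and 9.40 in vehicle on Transwell, and 9.45 and 9.48 in cholate and vehicle on the plate, so that its difference was -0.31 on Transwell and -0.03 on the plate. It and CDC25C were the 2 G2/M genes whose lower response was on Transwell. TOP2A, topoisomerase II alpha, stood at -0.01 and -0.24 and BIRC5, which encodes survivin, at -0.04 and -0.30.

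**Figure D3:**
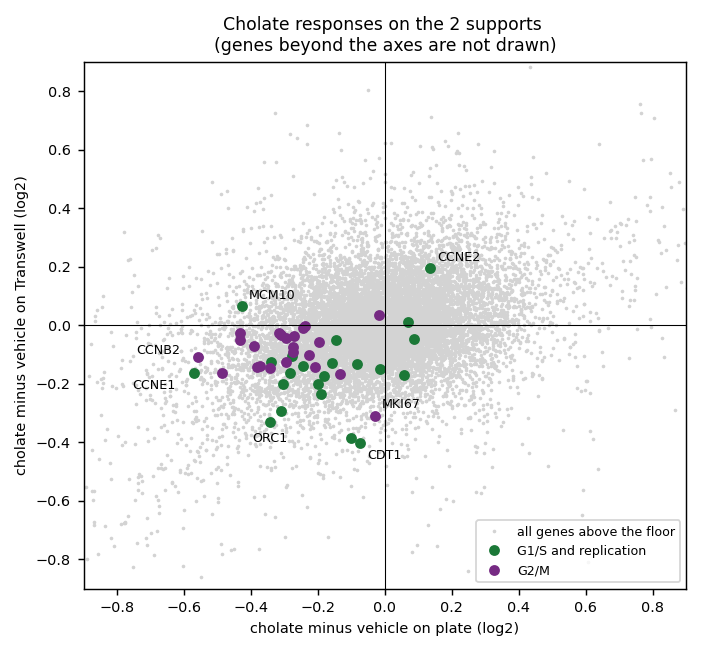
Cholate minus vehicle on the plate (horizontal) and on Transwell (vertical), in log2 units, for the 22 G1/S and replication genes (green), the 23 G2/M genes (purple) and the 12900 genes above the floor (grey, those beyond the axes not drawn). G2/M genes spread along the horizontal axis below 0, with MKI67 apart, and CCNE2 and, nearer the origin, CDC6 lie above 0 on both axes.

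The scatter of the 2 responses shows little order among members beyond their shared sign. Across the 45 genes the Transwell and plate responses correlated at a Pearson r of 0.04 (0.26 over the 22 G1/S and replication genes and -0.07 over the 23 G2/M genes), against 0.46 over all 12900 genes. The coefficients cover unlike ranges and are not directly comparable. On the plate the members ran from -0.57 to 0.13 log2 and all genes from -2.58 to 3.10. On Transwell the ranges were -0.40 to 0.19 and -1.66 to 1.35. All genes of a response share the same pair of arrays, so these are descriptions of 4 arrays.

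The additive limma fit over all 4 arrays, with support and treatment as terms, had 1 residual degree of freedom, which is the difference between the 2 cholate responses and not a spread between cultures. In that fit 0 of 19978 probe sets (0%) passed a Benjamini-Hochberg adjusted p of 0.05 for cholate, and 0 members did. At an unadjusted p under 0.05 there were 2162 probe sets (10.8%) and 2 members, ORC1 (mean -0.34 log2, SE 0.09, limma adjusted p = 0.41) and MCM4 (mean -0.30, SE 0.09, limma adjusted p = 0.44). These 2 of 45 members are a smaller share than the 10.8% of all probe sets. ORC1 and MCM4 had nearly the same difference on the 2 supports, which leaves a small residual. No G2/M gene reached an unadjusted p of 0.05.

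Transwell and plate cultures were compared within each treatment. In cholate the median Transwell minus plate difference was 0.03 log2 for the G1/S and replication genes and 0.18 for the G2/M genes, against 0.02 over all genes. In vehicle the medians were 0.02 and -0.04, against 0.02. Below 0, that is lower on Transwell, were 13 of 45 genes in cholate, against 46.6% of all genes, and 25 of 45 in vehicle, against 47.1%. The G2/M genes, with 19 of 23 above 0 in cholate and 8 of 23 in vehicle, made up most of that shift. The 2 comparisons share no array with each other, but each shares its arrays with the cholate responses, and the shift between them is the same quantity as the difference of responses above.

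Of the 45 genes, 17 were higher on Transwell in both treatments, 10 were lower in both and 18 had opposite signs. Of all genes, 39.5% were higher in both, 33.2% lower in both and 27.1% opposite in sign. Opposite signs were thus more frequent among the members (18 of 45), and a shared lower sign less frequent, than over all genes. These counts include differences close to 0. With both sizes at or above 0.077 log2, the median residual SD of the additive fit, opposite signs were 6 of 45 (13.3%), against 9.45% of all genes. The one member 1.5-fold apart in any comparison was CCNB1 in cholate (1.53-fold, 0.62 log2), where 7.77% of all genes were. In vehicle none was, where 5.09% of all genes were. At 1.2-fold in cholate, 10 members were higher on Transwell, where 20.0% of all genes were, and 4 lower, where 15.4% were. In vehicle 2 were higher and 4 lower, against 14.2% and 13.4%.

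**Figure D4:**
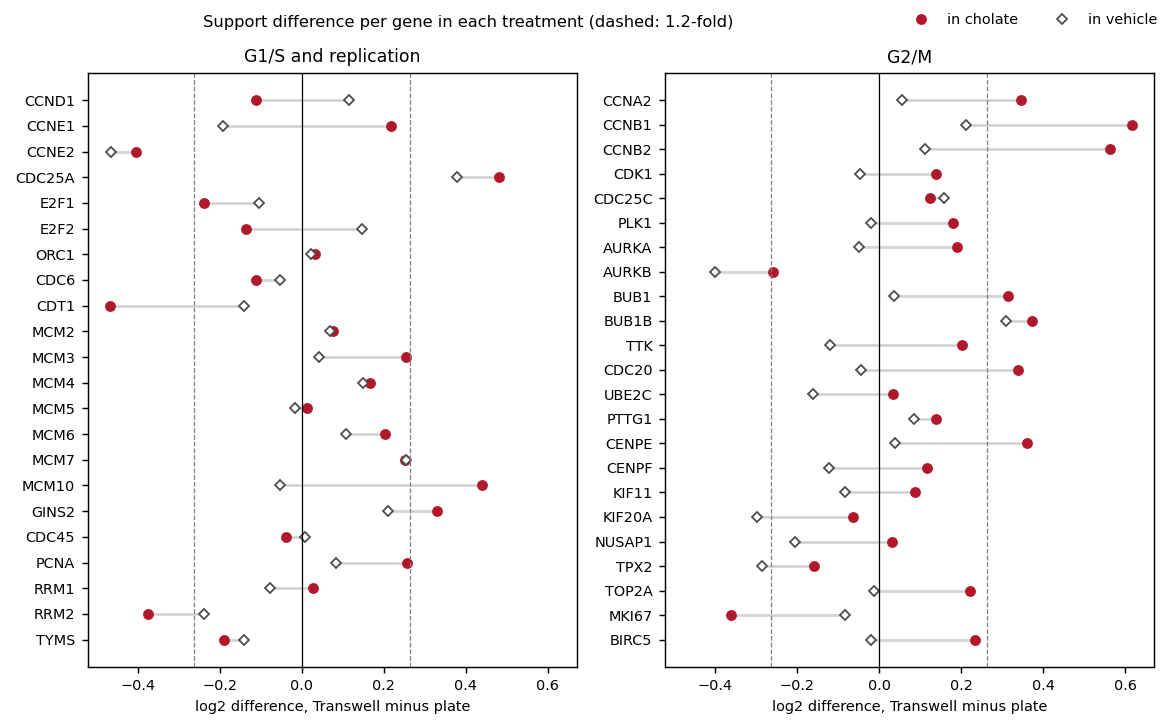
Transwell minus plate in log2 units for each of the 45 genes, in cholate (circles) and in vehicle (diamonds), with grey bars joining the 2 values of a gene and dashed lines at 1.2-fold. CCNE2, CDC25A and BUB1B keep their side in both treatments, while most G2/M genes lie further right in cholate.

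Single genes kept a support difference in both treatments. CDC25A was higher on Transwell by 0.48 log2 in cholate and 0.38 in vehicle, on average 0.43 (limma SE 0.09). CCNE2 was lower on Transwell, at -0.40 in cholate and -0.46 in vehicle, on average -0.43 (limma SE 0.09). The 2 genes, both acting at G1/S, thus stood apart by support in opposite directions.

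The helicase genes MCM7 (0.25 in each treatment) and GINS2 (0.33 in cholate and 0.21 in vehicle) were higher on Transwell. RRM2 was lower there, at -0.37 in cholate and -0.24 in vehicle, as was CDT1, at -0.47 and -0.14. MCM10 stood at 0.44 in cholate and -0.05 in vehicle, and E2F1 at -0.24 and -0.10.

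Of the G2/M genes, BUB1B, a checkpoint protein, read 8.16 log2 on Transwell and 7.79 on the plate in cholate, and 8.30 on Transwell and 7.99 on the plate in vehicle. AURKB, the kinase of the chromosomal passenger complex, read 7.87 on Transwell and 8.13 on the plate in cholate, and 7.93 and 8.33 on Transwell and plate in vehicle. Both Transwell values of BUB1B lay above both plate values, and those of AURKB below. CCNB1 was higher on Transwell by 0.62 in cholate and 0.21 in vehicle and CCNB2 by 0.56 and 0.11. TPX2, which activates AURKA on the spindle, stood at -0.16 and -0.28, and MKI67 at -0.36 and -0.08. CCNA2 stood at 0.35 and 0.06.

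For support, 0 of 19978 probe sets (0%) passed the additive limma fit, with a smallest adjusted p of 0.086, and 0 members passed. At an unadjusted p under 0.05 there were 4519 probe sets (22.6%) and 8 of 45 members: CCNE2, CDC25A, MCM7, GINS2, RRM2, CCNB1, AURKB and BUB1B. These 8 of 45 members are a smaller share than the 22.6% of all probe sets. The lowest limma adjusted p among members was 0.13, for CCNE2. When probe sets without a single listed gene were left out before the fit, 1513 of 13613 passed, among them the members CCNE2 and CDC25A. That setting changed the variance estimates of the fit as well as the number of tests.

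Other genes of the same pathways were described from lists that do not overlap the 45. Of 43 other DNA replication genes above the floor, 33 were lower in cholate on both supports and 1 was higher, with medians of -0.09 log2 on Transwell and -0.18 on the plate. Of 54 other mitosis genes, 38 were lower and 1 higher on both, with medians of -0.07 and -0.21. Set beside 34.7% of all genes lower on both, these are 76.7% and 70.4%. The plate response was the lower one for 74.4% of these replication genes and 74.1% of these mitosis genes, against 53.9% of all genes. The difference of responses had medians of 0.09 and 0.13 log2. Outside the 45, a lower response on the plate was thus about as frequent among replication genes as among mitosis genes. None of the genes in these lists passed the additive limma fit for cholate or for support.

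**Figure D5:**
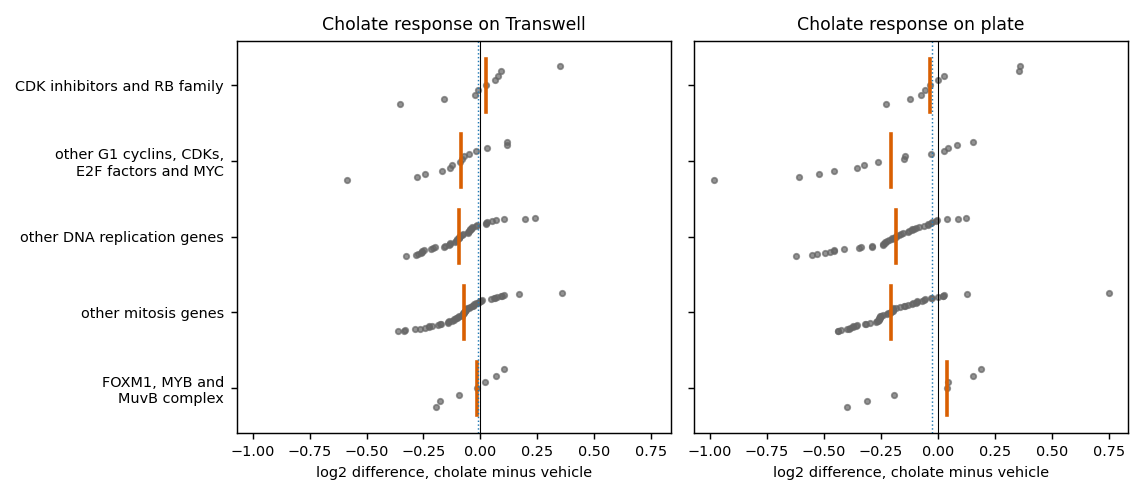
Cholate minus vehicle in log2 units on Transwell (left) and on the plate (right) for genes above the floor in 5 lists outside the 45. Points are genes, orange bars list medians, and the dotted line the median of all genes. WEE1 is the highest and CDK6 the lowest point in each panel.

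MCM9, a helicase of DNA repair related to the MCM subunits, stood at -0.22 log2 on Transwell and -0.62 on the plate. GINS3 stood at -0.26 and -0.49, RFC3, a subunit of the clamp loader, at -0.16 and -0.55, and CDC7, the kinase that fires licensed origins, at -0.28 and -0.41. CDC7 was also higher on Transwell than on the plate, by 0.75 in cholate and 0.62 in vehicle, as were POLE2, a DNA polymerase epsilon subunit (0.84 and 0.46), and ORC5 (0.77 and 0.47). In the mitosis list SGO1, which protects centromeric cohesion, stood at -0.33 and -0.37, CDCA5, also known as sororin, at -0.36 and -0.30, and ANLN, the cytokinesis protein anillin, at -0.23 and -0.39. For support, PBK, a mitotic kinase, was higher on Transwell by 0.54 in cholate and 0.33 in vehicle, and CDC25B stood at -0.54 and -0.21.

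WEE1, the kinase that holds CDK1 inactive, was the single mitosis gene higher on both supports. It read 8.83 log2 in cholate and 8.48 in vehicle on Transwell, and 9.49 in cholate and 8.74 in vehicle on the plate, differences of 0.36 and 0.75. It was lower on Transwell than on the plate, at -0.65 in cholate and -0.26 in vehicle. CDKN1A, which encodes the CDK inhibitor p21, read 7.55 in cholate and 7.20 in vehicle on Transwell, and 7.58 and 7.22 in cholate and vehicle on the plate. Its 2 differences were 0.35 and 0.36, so both genes lay on the side opposite to the medians of the 45. The list of CDK inhibitors and retinoblastoma family genes was mixed, with 3 of 9 higher and 3 of 9 lower on both supports. These are 33.3% each, not far from the 26.1% higher and 34.7% lower of all genes. CDKN1C, encoding p57, stood at -0.36 on Transwell and -0.23 on the plate, CDKN2D at 0.09 and 0.36, and RBL1, encoding p107, at -0.16 and -0.07. By support, CDKN2B was lower on Transwell at -0.32 in cholate and -0.30 in vehicle, CDKN1C was lower at -0.38 and -0.25, and CDKN1B, encoding p27, was higher by 0.15 and 0.09.

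In the list of other G1 cyclins, CDKs, E2F factors and MYC, 9 of 14 were lower and 2 higher on both supports. Those are 64.3% and 14.3%, against 34.7% and 26.1% of all genes. The list medians were -0.09 log2 on Transwell and -0.21 on the plate. CDK6, a partner of D-type cyclins, read 7.54 in cholate and 8.12 in vehicle on Transwell, and 7.64 in cholate and 8.63 in vehicle on the plate. Its differences of -0.58 and -0.98 were larger than those of any of the 45. CCND2, encoding cyclin D2, stood at -0.09 and -0.61, MYC at -0.02 and -0.52, and TFDP1, the E2F dimerisation partner, at -0.24 and -0.36. For support, E2F5, a repressor E2F, was higher on Transwell by 1.28 in cholate and 0.71 in vehicle, as was CCND2 by 0.71 and 0.19, and E2F7, also a repressor, was lower at -0.78 and -0.35.

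FOXM1, MYB and MuvB complex genes, the regulators of the mitotic wave, had mixed signs for cholate. Of 7 above the floor, 2 were lower and 2 higher on both supports, 28.6% each, against 34.7% and 26.1% of all genes. Their medians were -0.01 log2 on Transwell and 0.04 on the plate. RBBP4, a histone-binding MuvB subunit shared with other complexes, stood at -0.18 and -0.40 and MYBL2, encoding B-MYB, at -0.19 on each support. LIN9 stood at 0.02 and -0.31 and LIN37 at 0.10 and 0.19. By support, 5 of the 7 were lower and 2 higher on Transwell in both treatments, against 33.2% and 39.5% of all genes, with medians of -0.18 in cholate and -0.06 in vehicle.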

How the data were processed

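Each array came as deposited log2 intensities of probe sets, which the authors computed with RMA, per the submitters' processing notes. This method subtracts background, equalises distributions between arrays and summarises probes, so a change common to most genes is removed and differences near background are compressed. No source here names its software or version. Array medians lay between 5.64 and 5.73.

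Gene names came from the platform annotation (19460 of 33297 probe sets with 1 symbol), and the 45 genes matched RefSeq (GRCh38.p14) by gene number. The number of arrays limits the precision. With 1 array per condition, a difference between 2 arrays has no test of its own. The additive fit over all 4, which tests the mean of the 2 differences, used limma 3.58.1 in R 4.3.3 (lmFit, eBayes) on 19978 probe sets above the floor, 2-sided and Benjamini-Hochberg adjusted. Counts over genes used Python 3.11.15. Genes named by rule are, per group, the 8 with the largest mean cholate difference and the 8 with the largest mean support difference. The rule adds the 3 with the largest difference of responses and those past a threshold. In each list it takes up to 4 genes for cholate and up to 3 for support. Other members are given by role, and some of them, such as CCND1, PCNA and TOP2A, have values printed outside this rule. Members, lists, motifs and rules were chosen with earlier results of these data known, so the shared direction of the group is not independent evidence. Alternatives were other scalings, floors, fold thresholds, probe set summaries and limma settings.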

Additional observations from a re-analysis of the deposited data

Results flagged for a closer look

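For 6 of the 45 genes the Transwell minus plate difference had one sign in cholate and the other in vehicle, with both sizes at or above 0.077 log2, the median residual SD of the additive fit. That is 13.3% of them, not far from the 9.45% of the 12900 genes above the floor. With 1 array per condition this difference was not tested. Transwell minus plate in cholate, less the same in vehicle, was 0.41 log2 for CCNE1 (0.22 in cholate and -0.19 in vehicle) and 0.32 for TTK (0.20 and -0.12). It was 0.24 for CENPF (0.12 and -0.12) and 0.17 for KIF11 (0.09 and -0.08). It was -0.23 for CCND1 (-0.11 and 0.12) and -0.28 for E2F2 (-0.14 and 0.15). The rule goes by sign, and genes outside it had larger values, such as MCM10 (0.49) and CCNB2 (0.45). For the 2 cholate responses, opposite signs at the same size occurred in 0 of the 45 genes, against 12.5% of all genes.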

How the results depend on the processing

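No paired analysis was possible because the labels number no replicates, with 1 array per condition, so none could be left out either. The additive fit already compares treatments within supports. The cholate medians kept their sign under 6 alternatives (3 other scalings, 2 other floors and the mean of a gene's probe sets), between -0.20 and -0.14 log2 on Transwell and between -0.26 and -0.16 on the plate for G1/S and replication genes, and between -0.12 and -0.06 and between -0.37 and -0.28 for G2/M genes. Their counts lower on both supports ran from 16 to 19 and from 20 to 23. Median centring moved the median of all genes on the plate to -0.10 and the share of all genes lower on both supports to 50.5%. Cyclic loess gave small negative support medians for G1/S and replication genes, -0.0045 in cholate and -0.0146 in vehicle. It also gave CCNE1 a mean support difference of -0.0213. Median centring gave mean cholate responses of -0.0385 for E2F1 and -0.0182 for CDC6, and a mean support difference of 0.0248 for CENPF. Median centring subtracts the same constant from all values of an array, so a given difference shifts alike for every gene. Before centring these 3 values were 0.0203, 0.0406 and -0.0029. Under cyclic loess the support medians of all genes were 0.0003 in cholate and -0.0108 in vehicle, against 0.0203 and 0.0155 before. The cause of the sign changes under cyclic loess was not tested.

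Counts at 1.5-fold were mostly 0, and at 1.2-fold they were, for G1/S and replication genes, 4 and 8 for cholate on Transwell and plate and 6 and 2 for support in cholate and vehicle, and for G2/M genes 1 and 15, and 8 and 4. Under median centring 1 gene of each group passed 1.5-fold for cholate on the plate, and 2 G2/M genes did for support in cholate. Quantile normalization gave 1 G1/S gene on the plate, and it and cyclic loess gave 0 G2/M genes for support in cholate. For support, limma called 807 probe sets with a floor at the 60th percentile, 293 with an intensity trend and 1513 among probe sets with 1 listed gene. Members were called in the last setting alone, 2 of 45. For cholate, limma called 0 in every setting run. With 4 arrays and no replicates, the spread between cultures behind these differences is not measured.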

Other observations

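BIRC5 was the one member with 2 probe sets. The one not used above lay under the floor, at 3.79 log2 in cholate and 3.95 in vehicle on Transwell, and 4.02 in cholate and 3.96 in vehicle on the plate.

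The support differences of members correlated between treatments at a Pearson r of 0.65 over the 45 genes, 0.68 over the 22 G1/S and replication genes and 0.75 over the 23 G2/M genes, against 0.70 over all 12900 genes above the floor. The comparisons in cholate and in vehicle share no array, and genes are not independent replicates.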
